A study of Rattus norvegicus with 138 samples.

Results

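Tibialis anterior (TA) muscles left without repair 7 days after volumetric muscle loss (VML) injury were compared with control TA muscles. The injured side holds 8 muscles of 8 Lewis rats, taken by their labels: VML injury, no graft, no running and day 7. The control side holds 4 muscles, the left and right TA of 2 Lewis rats, labelled Sham at day 0, without graft and without running. These are 12 of the 68 muscles without running that entered the model, and further groups of the series received a graft or ran. By the labels VML injury was a full-thickness wound made in the middle of the TA of one leg with a biopsy punch, and the uninjured TA of the other leg is the contralateral muscle. According to the study's methods the rats were adult males. The label of the control muscles reads Sham, and the study uses both this word and unoperated for its controls. Its methods describe harvest of the TA and no separation of the defect from the remaining fibers, so wound bed and adjacent muscle contribute to 1 value. All control rats come from another numbered series of animals (TS4) than the operated rats (TS5), hence series and injury cannot be told apart against control. Contralateral muscles at 7 days post injury (DPI) come from the series of the injured rats, and their values are given for some of the genes and lists.

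In regenerating muscle, Pax7 marks the satellite cells, and Myod1 and then Myog come on in the myoblasts that descend from them. New fibers express embryonic and perinatal contractile proteins before the adult forms. Macrophages clear the debris and signal to fibro-adipogenic progenitors, stromal cells that lay down collagen. After VML the basement membrane sleeves that guide new fibers are removed with the tissue, and the wound is known for lasting inflammation and fibrosis.

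The deposited values are TPM, a transcript's reads per length scaled to a common total, so each library sums to the same total and the depth of a given library is unknown. No counting error can be given, and a rise of one transcript lowers the share of the others. By the number of symbols above 1 TPM, 13 libraries of the series fell below 7000 (901 to 5712) and were left out, and 7866 to 10948 symbols were above 1 TPM in the others. Of 11 injured libraries at 7 DPI, 3 were left out, each a second library of a muscle that kept its first, so all 8 muscles have a value. Of 6 contralateral muscles at 7 DPI, 4 were kept (rats TS5.105, TS5.106, TS5.125 and TS5.126). Injured muscles had 10477 to 10858 symbols above 1 TPM and control muscles 7866 to 8914. The 10 most abundant genes took 11.1% to 25.1% of the TPM in injured and 30.5% to 40.3% in control muscles. In 2 muscles the profile stood apart from the rest of its group. Ribosomal RNA took 16.2% of the TPM of the injured muscle of rat TS5.011 and at most 0.291% of the other 7, and a contralateral library of that rat carries the label of another day. The right control muscle of rat TS4.038 had the fewest symbols above 1 TPM of the 4 (7866) and the highest share in its 10 most abundant genes (40.3%). Control values below are given in the order rat TS4.037 left, rat TS4.037 right, rat TS4.038 left and rat TS4.038 right, with the names that the labels give the rats.

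Injured muscles differed from control muscles across much of the measured transcriptome. One limma model of log2(TPM + 1) held 68 muscles, those of all 17 groups of rats that did not run. A gene was called where its Benjamini-Hochberg adjusted p was under 0.05 and its log2 fold change lay above 1 or below -1. All fold changes below are differences on the log2(TPM + 1) scale, which understates the change of genes below a few TPM, unless a ratio of mean TPM is named. Of 11213 genes tested, 5173 (46.1%) were called higher and 274 (2.44%) lower at 7 DPI. The values of the 8 injured muscles lay wholly above those of the 4 control muscles for 66.2% of all tested genes and wholly below for 4.61%, and this held for 5070 of the genes called higher and 232 of those called lower. The median gene was shifted by 0.92, so the counts lean upward. With TPM divided by median-of-ratios size factors the median shift was 0.32, and 2887 genes (25.7%) were called higher and 1059 (9.44%) lower. The share of higher calls moved from 95.0% to 73.2%. All 2887 were among the 5173, and all 274 were among the 1059. Without the injured muscle of rat TS5.011 and the right control muscle of rat TS4.038, 4555 genes were called higher and 325 lower. Against the contralateral muscles of the same series of rats 5139 genes (45.8%) were called higher and 228 (2.03%) lower, and with size factors 2474 and 1038. These contralateral muscles all come from rats TS5.105 to TS5.126, whose injured muscles are part of the injured group, and the model did not pair them. With the injured muscles of rats TS5.011 to TS5.020 alone the counts against control were 5459 and 391, and with those of rats TS5.105 to TS5.126 alone 4850 and 187.

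The groups of genes described below were also counted against contralateral muscle. Called higher were 8 of 9 fibrillar collagens, 19 of 19 matricellular genes, 21 of 21 macrophage markers, 12 of 12 class II genes, 10 of 12 developmental genes, 13 of 17 acetylcholine receptor and denervation genes and 37 of 41 cell cycle genes. Called lower were 5 of 7 muscle identity genes, 15 of 31 adult sarcomere genes and 17 of 22 glycolysis genes. In the other direction 3 adult sarcomere genes were called higher and 1 cell cycle gene lower. With size factors these counts were, in the same order, 8, 17, 21, 11, 10, 11 and 31 higher, and 6, 22 and 21 lower, and in the other direction 1 adult sarcomere gene was called higher and 1 cell cycle, 1 developmental and 2 acetylcholine receptor and denervation genes lower. Both comparisons use the same 8 injured muscles.

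**Figure D1:**
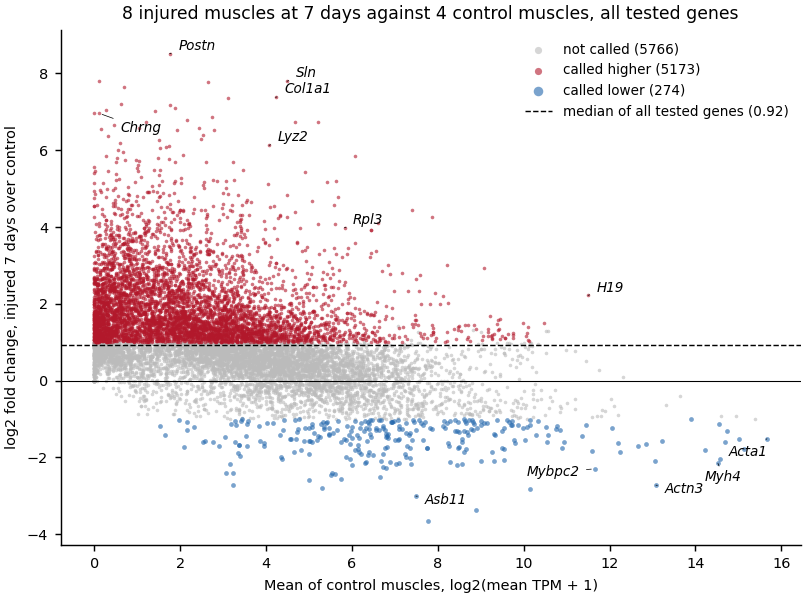
Log2 fold change of the injured muscles at 7 DPI over control (y axis) against the mean of the control muscles as log2(mean TPM + 1) (x axis), 1 point per tested gene. Called genes are colored, 5173 higher and 274 lower, the dashed line is the median of all 11213 genes at 0.92, and the lower calls lie mostly among genes of high control level.

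**Figure D2:**
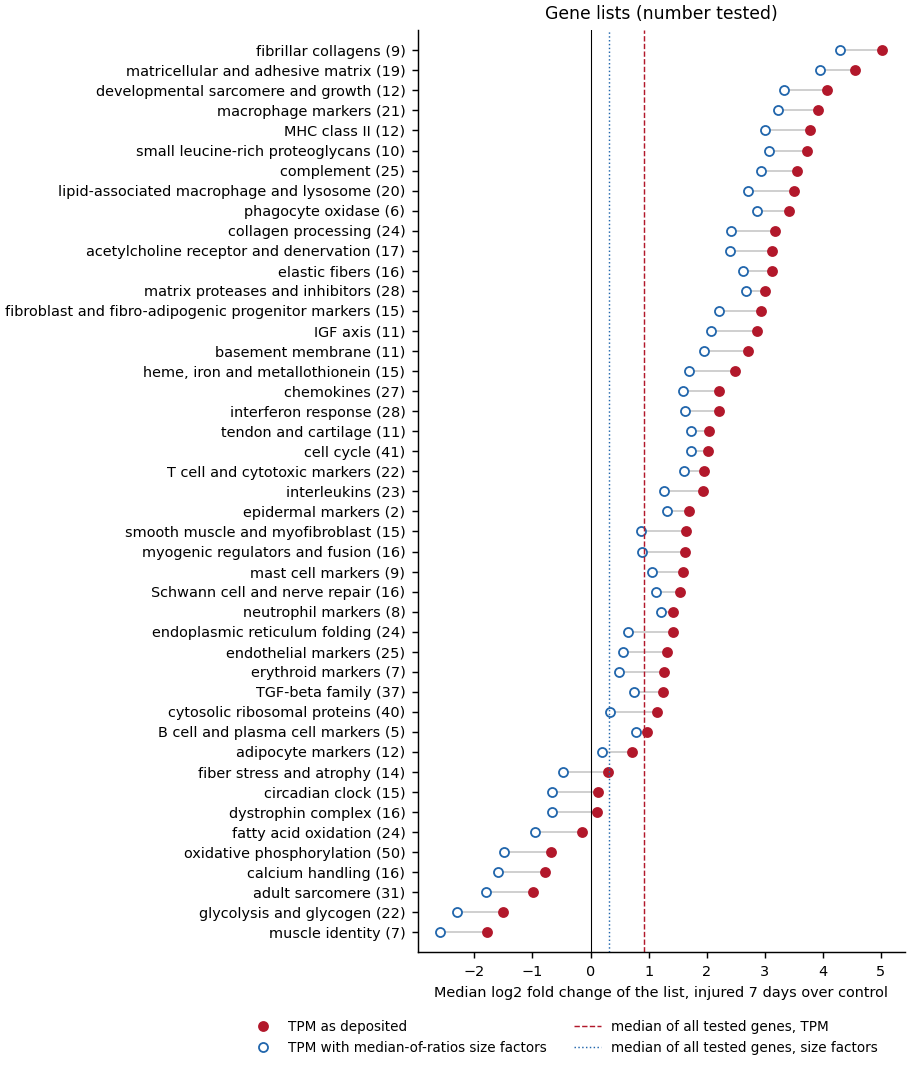
Median log2 fold change over control of 45 gene lists, with the number of tested members in parentheses. Filled points are TPM as deposited, open points TPM with size factors, and the vertical lines mark the medians of all tested genes (0.92 and 0.32). Fibrillar collagens are at the top and muscle identity genes at the bottom under both scalings, whereas circadian clock, dystrophin complex and fiber stress genes change sign with the scaling.

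Many of the genes that define mature muscle fibers were lower at 7 DPI, and fast fibers make up most of the rat TA. The 7 muscle identity genes gave 0 called higher and 5 lower (median -1.78), or 7 lower with size factors, and their summed level ranged from 33562 to 75957 TPM in the injured and from 133897 to 171336 TPM in the control muscles. Myh4 was at 26146, 23946, 23237 and 20929 TPM in the control muscles and ranged from 3435 to 8891 TPM (median 5135) in the injured muscles. Myh4 encodes the IIb myosin heavy chain, the fastest of the adult forms, and its groups did not overlap (log2 fold change -2.15, SE 0.24, adjusted p = 4.62e-12). Actn3 was at 8049, 7152, 7567 and 11878 TPM in the control muscles and ranged from 768 to 2369 TPM (median 1285) in the injured muscles. This gene, the alpha-actinin of fast fiber Z-discs, had the largest fall among the sarcomere genes, 6.44-fold lower by mean TPM (log2 fold change -2.72, SE 0.24, adjusted p = 1.17e-15). Acta1 was at 48112, 44585, 45819.8 and 69428 TPM in the control muscles and ranged from 12566 to 28858 TPM (median 17706) in the injured muscles. Skeletal actin thus fell with no overlap (log2 fold change -1.51, SE 0.19, adjusted p = 2.80e-10). The other members called lower were Ckm (-1.78) and Pygm (-2.10), for muscle creatine kinase and glycogen phosphorylase. From the list of the adult sarcomere Mybpc2 (-2.30), Myoz1 (-1.86), Tcap (-1.70), Tpm1 (-1.52) and Tnni2 (-1.31) were called lower too, which encode fast myosin binding protein C, the Z-disc proteins myozenin 1 and telethonin, alpha-tropomyosin and fast troponin I. The identity genes Des (-0.48) and Mb (-0.41), for desmin and myoglobin, were not called, although both were called lower with size factors (-1.29 and -1.22). In a sample of whole muscle, fewer fibers and less RNA per fiber cannot be told apart.

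Within the wider list of the adult sarcomere, 14 of 31 tested members were called lower and 4 higher (median -0.99), and with size factors 22 lower and 1 higher. Tnni1 was at 112, 108.2, 95.3 and 138.4 TPM in the control muscles and ranged from 563 to 1242 TPM (median 1005) in the injured muscles. Slow troponin I was therefore higher in every injured muscle than in any control muscle (log2 fold change 3.02, SE 0.28, adjusted p = 1.45e-14), and it stayed called with size factors (2.22). Tnnc1 (1.59), Lmod2 (1.57) and Tpm3 (1.19) were the other members called higher, and these 3 lost the call with size factors. Slow-fiber genes did not share a direction. Myl3 was called lower, although not with rats TS5.105 to TS5.126 alone, and Myh7 was below control on average. Myl2, the slow ventricular-type regulatory light chain, ranged from 39.5 to 861 TPM (median 398) in the injured and was at 328, 362, 264 and 480.4 TPM in the control muscles, so the groups overlapped and it was not called (log2 fold change -0.50, SE 0.75, adjusted p = 0.527). Myh1 (-0.67) and Myh2 (-0.96), the IIx and IIa heavy chains, were not called, and both were called lower with size factors (-1.47 and -1.76). Against contralateral muscle Myh1 differed by 0.13 and Myh4 by -1.63.

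Genes of calcium handling moved in both directions, with 4 of 16 tested members called higher and 6 lower, or 2 and 11 with size factors. Sln was at 21.4, 17.3, 32.3 and 14.8 TPM in the control muscles and ranged from 2756 to 6227 TPM (median 5426) in the injured muscles. Sarcolipin is a small peptide of the sarcoplasmic reticulum that inhibits the calcium pump, and its mean TPM was 230.4-fold that of control with no overlap (log2 fold change 7.79, SE 0.27, adjusted p = 3.10e-31). In contralateral muscle Sln was at 100.4, 74.5, 84.4 and 73.97 TPM. Casq2 ranged from 81.3 to 229 TPM (median 167) in the injured muscles and was at 9.77, 11.1, 11.1 and 6.63 TPM in the control muscles. Cardiac-type calsequestrin, the calcium buffer of slow fibers, was likewise higher in all injured muscles (log2 fold change 3.93, SE 0.23, adjusted p = 1.51e-22). Atp2a1 was at 19071, 17283, 17507 and 22484 TPM in the control muscles and ranged from 3532 to 8463 TPM (median 5573) in the injured muscles. The fast-fiber calcium pump fell (log2 fold change -1.80, SE 0.21, adjusted p = 1.16e-11), whereas the slow pump Atp2a2 was called higher (1.77) on TPM as deposited and not with size factors (0.97). Jph2 (-1.59), Cacna1s (-1.34) and Pvalb (-1.01), which encode junctophilin 2, the voltage sensor of the T-tubule and parvalbumin, were called lower, but Pvalb was not without rat TS5.020 (-0.89).

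Genes of developing muscle were higher. Of the 12 members of the developmental list, 11 were called higher and 0 lower under both scalings (median 4.06 and 3.33). Myh3 ranged from 104.6 to 217 TPM (median 189) in the injured muscles and was at 2.41, 2.91, 2.55 and 1.55 TPM in the control muscles. Embryonic myosin heavy chain marks fibers in formation, and its groups did not overlap (log2 fold change 5.76, SE 0.35, adjusted p = 7.02e-22). Myh8 ranged from 114 to 204 TPM (median 170.1) in the injured muscles and was at 7.41, 8.33, 7.54 and 6.57 TPM in the control muscles. The perinatal heavy chain showed the same separation (log2 fold change 4.26, SE 0.26, adjusted p = 4.47e-22). Tnnt2 ranged from 150.2 to 331 TPM (median 253) in the injured muscles and was at 1.21, 1.76, 1.13 and 1.12 TPM in the control muscles. Cardiac troponin T, which fetal skeletal muscle also expresses, had the largest fold change of the list (log2 fold change 6.75, SE 0.25, adjusted p = 2.84e-30). Cardiac actin Actc1 (5.18), the atrial and embryonic light chain Myl4 (4.67), the muscle LIM protein Csrp3 (3.46) and nestin, Nes (3.87), were called as well. H19 ranged from 10592 to 17482 TPM (median 13714) in the injured muscles and was at 2825, 2741, 2857 and 3143 TPM in the control muscles. H19, an imprinted long non-coding RNA transcribed beside Igf2, was thus among the most abundant transcripts of the injured muscles (log2 fold change 2.22, SE 0.23, adjusted p = 5.21e-13), and in contralateral muscle it was at 5102, 4926, 11061 and 9007 TPM. Igf2 (3.47) and Dlk1 (5.84), both imprinted growth genes, were called higher. Mybph was not called (0.72).

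Among the 16 tested myogenic regulators and fusion genes, 10 were called higher and 0 lower (median 1.63), against 7 and 1 with size factors. Myog ranged from 131.2 to 445 TPM (median 324) in the injured muscles and was at 4.55, 5.3, 8 and 2.44 TPM in the control muscles. Myogenin drives the differentiation of myoblasts, and all injured muscles exceeded all control muscles (log2 fold change 5.70, SE 0.27, adjusted p = 3.87e-26). Tmem8c ranged from 71.2 to 137.5 TPM (median 105.9) in the injured muscles and was at 0.06, 0.22, 0.06 and 0.1 TPM in the control muscles. Tmem8c encodes myomaker, the membrane protein that myoblasts need to fuse (log2 fold change 6.55, SE 0.25, adjusted p = 4.95e-30). Pax7 ranged from 1.5 to 6.36 TPM (median 4.01) in the injured muscles and was at 0.33, 0.47, 0.83 and 0.39 TPM in the control muscles. The satellite cell factor was lower in level than these yet also separated (log2 fold change 1.64, SE 0.19, adjusted p = 2.03e-11). Ncam1 (5.48) and Myf5 (2.56) were called higher under both scalings and Myf6 (1.61) on TPM as deposited alone. Myod1 ranged from 22.98 to 90.2 TPM (median 57.7) in the injured muscles against 43.1, 33.3, 28.3 and 19.5 TPM in control and was not called (log2 fold change 0.77, SE 0.26, adjusted p = 0.00513), and with size factors its sign turned (-0.02). Cdh15, or M-cadherin, was not called (0.63, and -0.12 with size factors).

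Subunits of the acetylcholine receptor and other genes that denervated fibers express were higher. The receptor of the adult endplate holds the epsilon subunit, while fetal and denervated fibers express the gamma subunit along their whole length. Of 17 tested members of the list, 14 were called higher and 0 lower (median 3.13), and with size factors 11 higher and 1 lower (median 2.40). Chrng ranged from 51 to 184 TPM (median 151) in the injured muscles and was at 0, 0.22, 0.08 and 0 TPM in the control muscles. The gamma subunit gene was thus at or near 0 in control muscle and above 50 TPM in every injured muscle (log2 fold change 6.96, SE 0.30, adjusted p = 1.13e-27). Chrnd ranged from 151 to 831 TPM (median 533) in the injured muscles and was at 3.61, 3.61, 3.46 and 3.32 TPM in the control muscles. Chrna1 ranged from 137.9 to 786 TPM (median 458) in the injured muscles and was at 4.74, 5.99, 3.96 and 3.72 TPM in the control muscles. The delta and alpha subunit genes had no overlap between groups (log2 fold change 6.79, SE 0.37, adjusted p = 9.28e-24, and log2 fold change 6.30, SE 0.34, adjusted p = 4.98e-24). Chrne ranged from 42.8 to 71.7 TPM (median 59.3) in the injured muscles and was at 5.69, 7.89, 6.45 and 3.31 TPM in the control muscles. Hence the gene of the adult epsilon subunit was higher too (log2 fold change 3.13, SE 0.21, adjusted p = 7.52e-20), 9.84-fold by mean TPM. Chrnb1, for the beta subunit, was called higher (1.37) and lost the call with size factors (0.59).

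Of the other members called higher, Musk (3.81) and Runx1 (4.67) encode the receptor kinase of the endplate and a transcription factor that denervated muscle turns on. Gadd45a ranged from 137.1 to 1069 TPM (median 690.1) in the injured muscles and was at 24.3, 26.7, 24.5 and 9.75 TPM in the control muscles. Cdkn1a ranged from 243 to 691 TPM (median 541) in the injured muscles and was at 4.71, 6.76, 3.54 and 2.79 TPM in the control muscles. Gadd45a and the cell cycle inhibitor Cdkn1a, both known from denervated muscle and from stress responses, did not overlap (log2 fold change 4.82, SE 0.34, adjusted p = 2.14e-19, and log2 fold change 6.58, SE 0.27, adjusted p = 6.90e-29). The muscle of rat TS5.011 was the lowest of the 8 for Chrna1, Chrnd, Chrng, Gadd45a and Cdkn1a. Without rat TS5.011 and the right control muscle of rat TS4.038 the list again gave 14 higher and 0 lower. Ache, the acetylcholinesterase gene, was not called (-0.78), but with size factors it was the 1 member called lower (-1.57). Markers of Schwann cells moved in the same samples, with 11 of 16 tested members called higher, and their part in these values was not tested.

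The promoters of 4 receptor subunit genes are printed because these genes moved together and are textbook targets of myogenic factors through the E-box CAGCTG and of synaptic nuclei through the N-box CCGGAA. Of the 17 tested members 13 have an entry in the RefSeq promoter table (rat build GRCr8, 250 bases before to 50 after the start). Searched on both strands, CAGCTG stood in 6 of the 13 (Chrna1, Gadd45a, Musk, Chrng, Chrnb1, Chrne) against 15.1% of all 33469 promoters, and CCGGAA in 2 of the 13 (Chrnd and Chrne) against 15%. Matches on either strand are in capitals, and a match is a string of letters in this window, not a shown binding site.
Chrng (chr9:95325734-95326033, plus strand): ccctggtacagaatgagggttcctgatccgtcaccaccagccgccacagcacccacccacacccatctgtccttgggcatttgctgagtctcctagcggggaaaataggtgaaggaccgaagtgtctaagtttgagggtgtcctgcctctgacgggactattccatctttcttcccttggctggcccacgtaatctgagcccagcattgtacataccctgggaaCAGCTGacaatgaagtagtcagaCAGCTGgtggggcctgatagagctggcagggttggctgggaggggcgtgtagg
Chrnd (chr9:95310066-95310365, plus strand): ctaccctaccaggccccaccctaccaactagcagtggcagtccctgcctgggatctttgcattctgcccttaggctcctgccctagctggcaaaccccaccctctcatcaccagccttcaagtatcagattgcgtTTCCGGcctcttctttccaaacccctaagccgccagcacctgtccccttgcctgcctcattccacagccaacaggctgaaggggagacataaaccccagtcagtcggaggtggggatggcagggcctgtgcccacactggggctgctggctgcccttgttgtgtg
Chrna1 (chr3:78877304-78877603, minus strand): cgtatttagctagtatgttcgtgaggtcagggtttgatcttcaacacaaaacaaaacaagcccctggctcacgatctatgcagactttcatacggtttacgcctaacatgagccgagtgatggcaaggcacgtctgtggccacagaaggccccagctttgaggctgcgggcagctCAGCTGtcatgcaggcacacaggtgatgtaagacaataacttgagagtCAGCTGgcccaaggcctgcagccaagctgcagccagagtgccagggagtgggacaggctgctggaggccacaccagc
Chrne (chr10:55834105-55834404, minus strand): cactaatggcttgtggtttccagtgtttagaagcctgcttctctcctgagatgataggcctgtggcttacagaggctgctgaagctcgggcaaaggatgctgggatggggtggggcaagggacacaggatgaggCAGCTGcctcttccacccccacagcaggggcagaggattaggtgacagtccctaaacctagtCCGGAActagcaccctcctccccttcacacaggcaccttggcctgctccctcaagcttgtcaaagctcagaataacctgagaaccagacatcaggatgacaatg
Chrng and Chrna1 each hold 2 matches of CAGCTG, Chrne holds 1 of each motif, and Chrnd holds 1 of CCGGAA, read as TTCCGG on the printed strand. Chrnd and Chrng lie next to each other on the plus strand of chromosome 9.

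Ankrd1 ranged from 598 to 1960.4 TPM (median 1391) in the injured muscles and was at 4.34, 4.64, 6.64 and 5.35 TPM in the control muscles. Ankrd1 encodes a stretch-responsive ankyrin repeat protein of the sarcomere and had the highest fold change of the 14 genes listed for fiber stress and atrophy (log2 fold change 7.78, SE 0.29, adjusted p = 1.16e-30), with no overlap. In that list 4 were called higher and 2 lower, and with size factors 1 and 5. Mstn was at 21.2, 20.6, 25.5 and 11.8 TPM in the control muscles and ranged from 2.48 to 5.73 TPM (median 4.29) in the injured muscles. Myostatin, which restrains muscle growth, was lower in every injured muscle (log2 fold change -2.03, SE 0.24, adjusted p = 6.45e-11), and Foxo4 was called lower (-1.01), although not without the right control muscle of rat TS4.037 (-0.90). The ubiquitin ligases of atrophy did not pass the test. Fbxo32 ranged from 27.2 to 312 TPM (median 128.2) against 145, 143.1, 104.7 and 72.4 TPM in control, and Trim63 from 64.4 to 525 TPM (median 283) against 224, 257, 232 and 125.8 TPM, with overlap in both (log2 fold changes 0.07 and 0.33, and -0.73 and -0.47 with size factors). Of 16 tested genes of the dystrophin complex and sarcolemma, 3 were called higher and 1, Sgcb (-1.27), lower, and with size factors 2 higher and 6 lower. The membrane repair gene Dysf was called higher (1.07) on TPM as deposited alone.

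Genes of glycolysis and glycogen use, the energy supply of fast fibers, fell as a group. Of 22 tested members 18 were called lower and 0 higher (median -1.502), and 21 were lower with size factors. Aldoa was at 23417, 21825, 21400.3 and 31313 TPM in the control muscles and ranged from 3889 to 9616 TPM (median 6137) in the injured muscles. Muscle aldolase fell with no overlap (log2 fold change -2.05, SE 0.20, adjusted p = 8.35e-14), 4.02-fold by mean TPM. Gapdh was at 24402, 23061, 22312 and 35551 TPM in the control muscles and ranged from 5664 to 11624 TPM (median 8816) in the injured muscles. Glyceraldehyde-3-phosphate dehydrogenase, often used as a reference gene, was lower in all injured muscles (log2 fold change -1.61, SE 0.16, adjusted p = 3.29e-13). Phkg1 (-2.18), Gpd1 (-2.06), Pfkm (-1.83), Pgam2 (-1.65), Pkm (-1.63) and Slc2a4 (-1.30) belonged to the same group, the last being the insulin-regulated glucose transporter. Against contralateral muscle 17 of the 22 were called lower, and 21 with size factors.

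Genes of oxidative phosphorylation moved less. On TPM as deposited 7 of 50 tested members were called lower and 0 higher (median -0.69), whereas with size factors 48 were lower (median -1.49). Cycs was at 1589, 1647, 1590 and 1191 TPM in the control muscles and ranged from 409.9 to 839.6 TPM (median 591) in the injured muscles. Cytochrome c had the largest fall of the list (log2 fold change -1.42, SE 0.17, adjusted p = 2.97e-11), followed by Cox6a2 (-1.24), the muscle form of a cytochrome oxidase subunit, and Atp5a1 (-1.15). The count of members called lower was 17 with rats TS5.011 to TS5.020 alone and 1 with rats TS5.105 to TS5.126 alone. Of 24 genes of fatty acid oxidation limma called 0 on TPM as deposited, where 12 had an unadjusted p under 0.05, as did 9953 of all 11213 genes (median -0.15), and 12 were called lower with size factors.

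The 15 lowest fold changes among called genes whose groups did not overlap belonged to LOC100910189 (-3.66), RGD1565323 (-3.37), Asb11 (-3.01), Mylk2 (-2.83), Adhfe1 (-2.80), Actn3 (-2.72), Susd4 (-2.58), Ostn (-2.55), Pfkfb1 (-2.50), Aqp4 (-2.45), Cib2 (-2.44), Arrdc2 (-2.41), Adcy1 (-2.40), Odf3l2 (-2.40) and Mybpc2 (-2.30). Asb11 was at 195, 199, 182 and 139.2 TPM in the control muscles and ranged from 15.3 to 37.1 TPM (median 19.8) in the injured muscles. Asb11 encodes a muscle-enriched adaptor of a ubiquitin ligase (log2 fold change -3.01, SE 0.26, adjusted p = 6.33e-16). Mylk2 was at 1153, 1154, 1283 and 922 TPM in the control muscles and ranged from 111 to 312 TPM (median 146) in the injured muscles. This kinase phosphorylates the light chain of fast myosin, and its level fell 6.84-fold by mean TPM (log2 fold change -2.83, SE 0.28, adjusted p = 1.05e-13). Ostn was at 61.8, 51.2, 61.3 and 36.5 TPM in the control muscles and ranged from 4.12 to 21.4 TPM (median 7.39) in the injured muscles. Osteocrin, a peptide secreted by muscle, and Aqp4, the water channel of fast fiber membranes, also fell with no overlap. The other 14 besides Arrdc2 were called lower against contralateral muscle as well, from -2.78 for LOC100910189 to -1.06 for Odf3l2. Arrdc2 was at 32.9, 80.7, 53.0 and 14.2 TPM in control muscles, at 3.64, 4.03, 15.1 and 9.93 TPM in contralateral muscles and ranged from 4.22 to 9.34 TPM (median 6.26) in injured muscles, a difference of -0.13 against contralateral muscle.

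**Figure D3:**
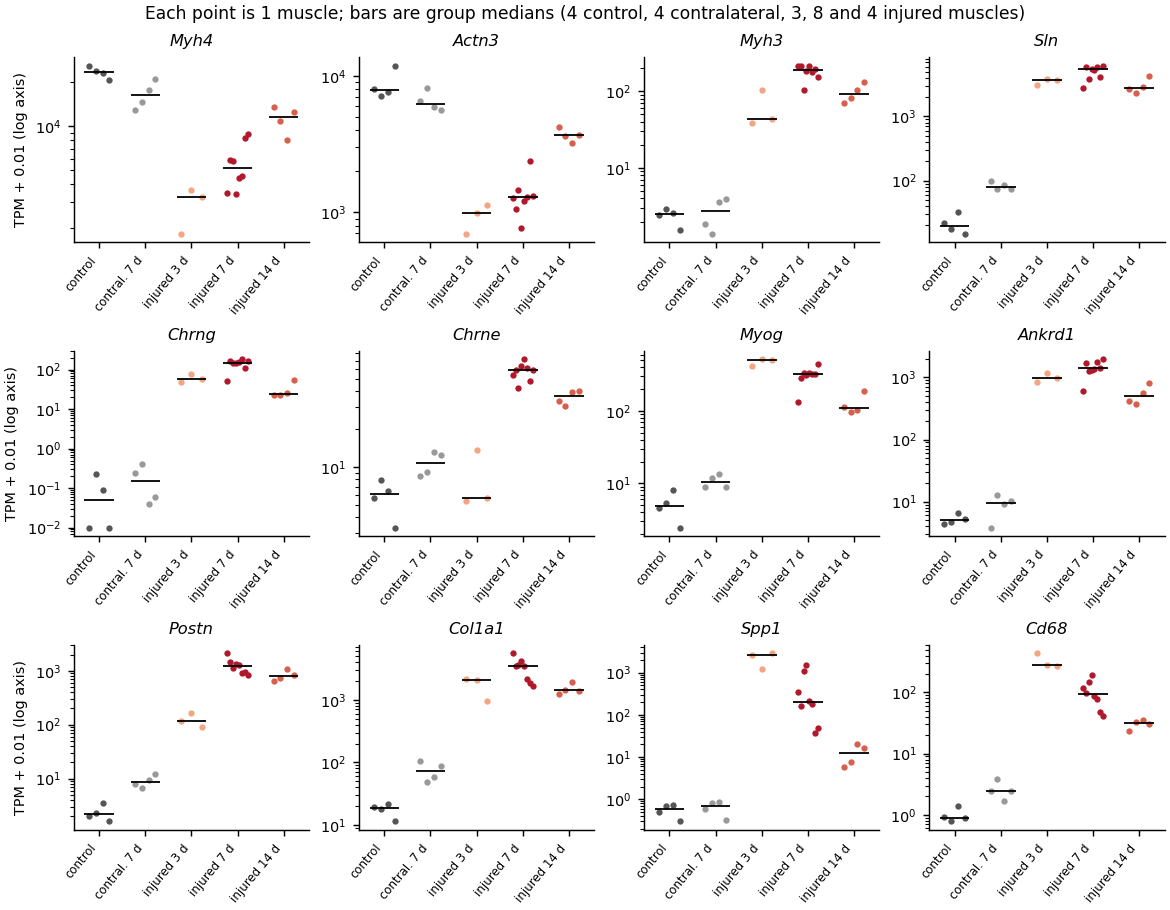
TPM + 0.01 of 12 genes on log axes, 1 point per muscle, in control, contralateral 7 DPI and injured muscles at 3, 7 and 14 DPI (4, 4, 3, 8 and 4 muscles), with bars at the medians. Myh4 and Actn3 are lowest in injured muscles at 3 and 7 DPI, Chrng and Myh3 are highest at 7 DPI, Chrne leaves the control range at 7 DPI in all 8 muscles, and Spp1 and Cd68 fall from 3 to 14 DPI.

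Extracellular matrix genes rose, and among the 45 lists the fibrillar collagens had the highest median under both scalings. All 9 tested fibrillar collagen genes were called higher under both scalings (median 5.0271 and 4.30), and their summed level ranged from 5736 to 17284 TPM in the injured and from 49.8 to 115 TPM in the control muscles. Col1a1 was at 19.6, 18.1, 21.5 and 11.4 TPM in the control muscles and ranged from 1669 to 5618 TPM (median 3494) in the injured muscles. The main chain of type I collagen, the bulk of scar, was 185-fold higher by mean TPM (log2 fold change 7.38, SE 0.34, adjusted p = 8.80e-27), and in contralateral muscle it was at 106.4, 47.7, 57.9 and 86.4 TPM. Col3a1 was at 40.4, 42.6, 44.9 and 16.8 TPM in the control muscles and ranged from 2268 to 5794 TPM (median 4114) in the injured muscles. Type III collagen, which loose and early scar contains, separated likewise (log2 fold change 6.74, SE 0.24, adjusted p = 3.52e-31). Col5a1 (5.86), Col11a1 (4.33) and Col5a3 (4.88), chains that set fibril diameter, were also called. Of 24 genes that modify, cleave or crosslink collagen 23 were called higher (median 3.19), 21 with size factors. Lox ranged from 34.0 to 97.3 TPM (median 67.9) in the injured muscles and was at 0.41, 0.61, 0.59 and 0.08 TPM in the control muscles. Lysyl oxidase crosslinks collagen and elastin (log2 fold change 5.39, SE 0.26, adjusted p = 7.43e-26). Loxl1 (5.72), Fkbp10 (5.06), P4ha3 (4.56) and Serpinh1 (4.39) encode another crosslinking oxidase, an isomerase and a hydroxylase of procollagen and Hsp47, the collagen chaperone. P4ha1 (0.56) was the member not called.

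Matricellular proteins, which sit in the matrix and signal to cells, gave 18 of 19 members called higher (median 4.56), and 17 with size factors. Postn was at 2.05, 2.31, 3.55 and 1.6 TPM in the control muscles and ranged from 832 to 2146 TPM (median 1206) in the injured muscles. Periostin had the highest fold change of all genes called without overlap (log2 fold change 8.51, SE 0.34, adjusted p = 3.15e-29), 531-fold by mean TPM, and was at 7.83, 6.56, 9.32 and 12.1 TPM in contralateral muscle. Cthrc1 ranged from 129.8 to 445 TPM (median 260.3) in the injured muscles and was at 0, 0.27, 0.07 and 0 TPM in the control muscles. Cthrc1 is a secreted protein of activated fibroblasts (log2 fold change 7.79, SE 0.33, adjusted p = 4.76e-28). Tnn, for tenascin N, was listed at 0 in all 4 control muscles and ranged from 69.8 to 225 TPM (median 130.8) in injured muscles. Tnc ranged from 121 to 221 TPM (median 147) in the injured muscles and was at 0.16, 0.21, 0.36 and 0.09 TPM in the control muscles. Tenascin C, like tenascin N, is scarce in resting adult muscle (log2 fold change 7.05, SE 0.33, adjusted p = 2.55e-26). Fn1 was at 9.23, 10.2, 10.5 and 3.52 TPM in the control muscles and ranged from 253 to 787 TPM (median 511) in the injured muscles. Fibronectin, the provisional matrix of wounds, separated as well (log2 fold change 5.69, SE 0.26, adjusted p = 3.88e-27). Cyr61 (0.84) was the member not called. All 16 tested elastic fiber genes were called higher (14 with size factors), among them Mfap4 (6.40), Mfap2 (4.91) and Eln (4.07). In the family of small leucine-rich proteoglycans, which coat collagen fibrils, 9 of 10 were called higher and 8 with size factors. Lum was at 7.5, 9.5, 11.5 and 2.23 TPM in the control muscles and ranged from 635 to 2042 TPM (median 1530) in the injured muscles. Bgn was at 6.19, 4.79, 7.24 and 5.47 TPM in the control muscles and ranged from 398 to 1024 TPM (median 672) in the injured muscles. Lumican and biglycan did not overlap (log2 fold change 7.35, SE 0.29, adjusted p = 1.44e-29, and log2 fold change 6.54, SE 0.26, adjusted p = 1.65e-29). Aspn (7.01) rose more than Dcn (3.38), whose control level was already 101.5, 109, 131.4 and 32.9 TPM. Basement membrane genes gave 9 of 11 tested members called higher (8 with size factors), with Col4a1 at 3.54, and 6 of the 17 listed have no entry among the symbols used.

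Most genes in the list of matrix proteases and their inhibitors were higher. Of 28 tested members 23 were called higher under both scalings and 0 lower, against 1 lower, Timp4 (-1.52), with size factors. Mmp14 was at 3.5, 2.94, 3.59 and 1.14 TPM in the control muscles and ranged from 175 to 593 TPM (median 384) in the injured muscles. Mmp2 was at 11.6, 10.8, 12.7 and 4.9 TPM in the control muscles and ranged from 254 to 727 TPM (median 505) in the injured muscles. Membrane-bound Mmp14 activates gelatinase Mmp2, and both separated (log2 fold change 6.53, SE 0.26, adjusted p = 3.15e-29, and log2 fold change 5.48, SE 0.26, adjusted p = 1.76e-26). Timp1 ranged from 83.9 to 489 TPM (median 231) in the injured muscles and was at 1.45, 2.85, 3.2 and 1.14 TPM in the control muscles. The inhibitor Timp1 was higher in each injured muscle (log2 fold change 6.07, SE 0.32, adjusted p = 4.15e-24). Macrophage elastase Mmp12 ranged from 2.25 to 188 TPM (median 28.6) and collagenase Mmp13 from 1.08 to 39.3 TPM (median 8.53) in injured muscles, a wide spread, and both were at or below 0.04 TPM in every control muscle. Of 37 members of the TGF-beta family, its receptors, binders and targets, 23 were called higher and 1, Mstn, lower, and with size factors 15 and 4. Tgfb1 ranged from 37.5 to 83.2 TPM (median 59.0) in the injured muscles and was at 3.92, 3.44, 3.34 and 2.97 TPM in the control muscles. The ligand that drives collagen production rose (log2 fold change 3.66, SE 0.16, adjusted p = 4.48e-28), as did its receptor Tgfbr2 (2.39) and Fst (3.37) and Fstl1 (4.88), for follistatin, which binds activin and myostatin, and a follistatin-like protein. Smad3 (-0.55), Smad7 (-0.14) and Acvr2b (-0.53) were not called, and with size factors Smad3 and Acvr2b were called lower.

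Markers of fibroblasts and fibro-adipogenic progenitors gave 13 of 15 tested members called higher under both scalings (median 2.94), and their summed level ranged from 1911 to 3370.1 TPM in the injured and from 119 to 388 TPM in the control muscles. Pdgfra ranged from 17.3 to 36.8 TPM (median 26.8) in the injured muscles and was at 1.38, 1.69, 1.69 and 0.63 TPM in the control muscles. The receptor that defines these progenitors separated (log2 fold change 3.54, SE 0.17, adjusted p = 1.45e-26). Lrrc15 ranged from 27.4 to 87.01 TPM (median 41.7) in the injured muscles and was at 0, 0, 0.04 and 0 TPM in the control muscles. Lrrc15, a surface protein of myofibroblasts, was close to 0 in control muscle (log2 fold change 5.45, SE 0.30, adjusted p = 1.24e-23). Thy1 (6.07), S100a4 (5.43) and Fap (4.15) were further members. Of 15 smooth muscle and myofibroblast genes 12 were called higher and 2 lower, and with size factors 7 and 2. Acta2 ranged from 114 to 336 TPM (median 207) in the injured muscles and was at 38.5, 32.4, 29.2 and 23.6 TPM in the control muscles. Smooth muscle actin, also a marker of myofibroblasts, rose (log2 fold change 2.64, SE 0.22, adjusted p = 1.61e-16), whereas Lmod1 (-1.85) and Synpo2 (-1.05), a leiomodin and a Z-disc protein that striated fibers also make, were called lower, Synpo2 not without the left control muscle of rat TS4.037 (-0.97).

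Macrophage genes were higher as a group. All 21 tested markers were called higher under both scalings (median 3.91), their groups did not overlap in 21 of 21, and their summed level ranged from 1066 to 4607 TPM in the injured and from 42.4 to 78.3 TPM in the control muscles. Lyz2 was at 16.01, 15.7, 22.9 and 8.6 TPM in the control muscles and ranged from 451 to 2300.4 TPM (median 1267) in the injured muscles. Lysozyme of myeloid cells was 80.9-fold higher by mean TPM (log2 fold change 6.13, SE 0.30, adjusted p = 8.46e-26). Cd68 was at 0.92, 0.77, 1.39 and 0.86 TPM in the control muscles and ranged from 40.9 to 196 TPM (median 93.5) in the injured muscles. The lysosomal macrophage marker followed (log2 fold change 5.55, SE 0.27, adjusted p = 1.03e-25). Mrc1 was at 1, 1.39, 1.37 and 0.69 TPM in the control muscles and ranged from 15.5 to 47.1 TPM (median 28.9) in the injured muscles. The mannose receptor, which marks resident and repair macrophages, separated too (log2 fold change 3.76, SE 0.18, adjusted p = 5.51e-26). Cd163, a hemoglobin scavenger receptor, rose less (2.62). Of 20 genes of lipid-associated macrophages and lysosomes 17 were called higher and 0 lower (16 and 0 with size factors). Spp1 ranged from 36.4 to 1535 TPM (median 197) in the injured muscles and was at 0.5, 0.68, 0.73 and 0.29 TPM in the control muscles. Osteopontin, a secreted matrix and cytokine protein, spread widely between injured muscles (log2 fold change 7.20, SE 0.52, adjusted p = 8.14e-19). Apoe was at 68.8, 69.4, 77.8 and 48.0 TPM in the control muscles and ranged from 2013 to 8139.9 TPM (median 3884) in the injured muscles. Gpnmb was at 2.08, 2.65, 4.26 and 1.63 TPM in the control muscles and ranged from 307 to 975 TPM (median 462) in the injured muscles. Apolipoprotein E and the lysosomal glycoprotein Gpnmb did not overlap (log2 fold change 5.85, SE 0.26, adjusted p = 3.03e-27, and log2 fold change 7.11, SE 0.38, adjusted p = 3.53e-24), and the lipid receptor Trem2 was at 4.99. Lpl (0.98), Lamp1 (0.68) and Ctsd (0.65) were not called.

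Markers of other blood cells were present at low level. Of 8 tested neutrophil markers 5 were called higher against control and 2 against contralateral muscle, and with size factors 5 and 1. S100a9 ranged from 8.82 to 31.02 TPM (median 23.3) in the injured muscles and was at 3.02, 3.06, 3.93 and 0.4 TPM in the control muscles. S100a8 ranged from 7.83 to 28.3 TPM (median 20.7) in the injured muscles and was at 1.6, 1.42, 1.51 and 0.7 TPM in the control muscles. In contralateral muscle S100a9 was at 8.6, 9.24, 19.1 and 16.3 TPM, and neither S100a8 (0.82) nor S100a9 (0.68) was called against it. The granule genes Mpo and Elane did not reach 1 TPM in any group mean. T cell and cytotoxic markers gave 18 of 22 called higher (15 with size factors, where Foxp3 was called lower). Cd3e ranged from 2.04 to 6.15 TPM (median 3.78) in the injured muscles and was at 0.17, 0.11, 0 and 0 TPM in the control muscles. The receptor chain that defines T cells was low but separated (log2 fold change 2.13, SE 0.18, adjusted p = 2.37e-16). Cd8a ranged from 6.01 to 27.4 TPM (median 12.5) in the injured muscles and was at 0.24, 0.15, 0.39 and 0.21 TPM in the control muscles. Cd8a, listed as a marker of cytotoxic T cells, rose (log2 fold change 3.40, SE 0.22, adjusted p = 7.94e-21), with Cd28 (3.22) and Cd4 (4.46), which rat macrophages also express. Which cells carried the Cd8a transcript was not tested. Foxp3, of regulatory T cells, was below its control level on average (-0.66) and not called. B cell markers gave 2 of 5 tested called higher under both scalings, where 46.1% of all tested genes were called higher, and 25.7% with size factors. Ms4a1 and Cd79b were not tested for low level. Mast cell markers gave 6 of 9 (5 with size factors), among them carboxypeptidase Cpa3 (2.75) and chymase Cma1 (2.73).

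Genes of antigen presentation on MHC class II rose as a group, with 12 of 12 called higher (11 with size factors, median 3.78). RT1-Da was at 11.4, 11.4, 12.6 and 8.86 TPM in the control muscles and ranged from 162 to 344 TPM (median 239) in the injured muscles. Cd74 was at 33.6, 35.3, 42.7 and 33.1 TPM in the control muscles and ranged from 451 to 844 TPM (median 644) in the injured muscles. Neither the class II alpha chain nor the invariant chain Cd74 overlapped (log2 fold change 4.32, SE 0.20, adjusted p = 9.58e-27, and log2 fold change 4.09, SE 0.20, adjusted p = 1.17e-25). Of 27 chemokines 22 were called higher (19 with size factors). Ccl2 ranged from 13.04 to 125.5 TPM (median 50.02) in the injured muscles and was at 1.11, 1.19, 1.61 and 0.21 TPM in the control muscles. This attractant of monocytes rose (log2 fold change 4.59, SE 0.32, adjusted p = 3.45e-19). Cxcl13 ranged from 6.21 to 59.4 TPM (median 25.4) in the injured muscles and was at 0.15, 0.19, 0.36 and 0 TPM in the control muscles. Cxcl13, which attracts B cells, separated as well (log2 fold change 4.28, SE 0.35, adjusted p = 1.32e-16). Among the members the neutrophil attractants Cxcl1 (0.84) and Cxcl2 (0.95) were not called, and Cxcl3, Cxcl6 and Ccl20 were listed at 0 in all control muscles. Complement genes gave 21 of 25 called higher and 1, Masp1 (-1.33), lower (20 and 1 with size factors). C1qa was at 6.82, 6.87, 9.87 and 7 TPM in the control muscles and ranged from 115 to 439.7 TPM (median 254) in the injured muscles. The recognition protein of the classical pathway separated (log2 fold change 4.85, SE 0.22, adjusted p = 4.26e-27), with C1s (5.23) and Cfd (4.34), and the central component C3 was at a low level, from 1.65 to 5.58 TPM (median 2.83) in injured muscles (log2 fold change 1.94, SE 0.17, adjusted p = 8.66e-16). Of 23 interleukin and receptor genes 19 were called higher and 1 lower (15 and 1 with size factors). Il1rl1 ranged from 19.6 to 51.9 TPM (median 34.3) in the injured muscles and was at 0.2, 0.13, 0.07 and 0 TPM in the control muscles. The receptor of interleukin 33 rose most (log2 fold change 4.96, SE 0.22, adjusted p = 1.82e-27), beside its ligand Il33 (2.81). Il15 was at 135.8, 176, 207 and 87.4 TPM in the control muscles and ranged from 26.8 to 54.4 TPM (median 33.5) in the injured muscles. Interleukin 15, which fibers secrete, was the member called lower (log2 fold change -1.99, SE 0.19, adjusted p = 2.25e-14). Il6 was not called (0.90).

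Interferon response genes gave 25 of 28 called higher (21 with size factors, median 2.21). Isg15 ranged from 15.6 to 92.6 TPM (median 30.8) in the injured muscles and was at 4.26, 2.93, 3.28 and 2.12 TPM in the control muscles. Irf7 ranged from 14.7 to 75 TPM (median 34.6) in the injured muscles and was at 4.02, 3.53, 3.71 and 2.22 TPM in the control muscles. The ubiquitin-like Isg15 and the transcription factor Irf7 did not overlap (log2 fold change 3.09, SE 0.50, adjusted p = 1.04e-07, and log2 fold change 2.94, SE 0.40, adjusted p = 2.27e-09). The response element of these genes holds GAAA, 2 bases of any kind and GAAA again, which was searched on both strands. It stood in 14 of the 20 tested members with a RefSeq promoter (GRCr8) against 3.92% of all 33469 promoters. The promoter of Ifit3 (chr1:241527076-241527375, plus strand) is shown as an example with the match in capitals. Ifit3 ranged from 4.53 to 37.6 TPM (median 9.4) in injured muscles and was at 1.36, 2.24, 1.46 and 0.9 TPM in control muscles.
Ifit3: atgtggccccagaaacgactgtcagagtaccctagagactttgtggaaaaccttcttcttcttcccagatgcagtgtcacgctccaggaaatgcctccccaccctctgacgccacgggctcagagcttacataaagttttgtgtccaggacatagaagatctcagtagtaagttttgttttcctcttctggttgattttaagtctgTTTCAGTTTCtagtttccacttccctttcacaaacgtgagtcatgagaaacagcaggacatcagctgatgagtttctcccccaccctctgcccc
All 6 genes of the phagocyte oxidase were called higher under both scalings. Cybb ranged from 19.8 to 68.4 TPM (median 43.3) in the injured muscles and was at 0.72, 0.53, 0.86 and 0.25 TPM in the control muscles. Its catalytic subunit separated (log2 fold change 4.72, SE 0.25, adjusted p = 5.74e-24). Of 15 genes of heme, iron and metal handling 12 were called higher and 0 lower (10 and 1 with size factors). Hmox1 ranged from 45.7 to 833 TPM (median 99.4) in the injured muscles and was at 2.24, 2.84, 3.98 and 1.73 TPM in the control muscles. Heme oxygenase 1, which degrades heme, rose (log2 fold change 5.19, SE 0.39, adjusted p = 3.89e-18). Mt1 was at 2.06, 3.26, 3.56 and 0.6 TPM in the control muscles and ranged from 183 to 637 TPM (median 493) in the injured muscles. Metallothionein 1 separated (log2 fold change 7.17, SE 0.30, adjusted p = 1.26e-28), as did the ferritin light chain Ftl1 (4.12).

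Of the other cell types, endothelial markers shifted little beyond the median gene. On TPM as deposited 15 of 25 were called higher (median 1.31), whereas with size factors 5 were (median 0.56). Plvap ranged from 34.9 to 102.3 TPM (median 65.9) in the injured muscles and was at 6.5, 4.93, 5.75 and 4.48 TPM in the control muscles. Plvap, of fenestrated and activated vessels, rose most (log2 fold change 3.29, SE 0.25, adjusted p = 3.32e-18). Pecam1 (1.97) stayed called with size factors, and Kdr (0.79) and Flt1 (-0.08), the receptors of vascular endothelial growth factor, were not called. Schwann cell and nerve repair genes gave 11 of 16 called higher, or 9 with size factors. S100b ranged from 8.92 to 24.6 TPM (median 17.7) in the injured muscles and was at 0.96, 1.44, 1.64 and 1.28 TPM in the control muscles. Gap43 ranged from 3.91 to 7.14 TPM (median 5.83) in the injured muscles and was at 0.62, 0.41, 0.26 and 0.39 TPM in the control muscles. S100b, of Schwann cells, and Gap43, of growing axons and repair Schwann cells, separated (log2 fold change 2.95, SE 0.26, adjusted p = 1.03e-15, and log2 fold change 2.21, SE 0.20, adjusted p = 3.33e-15). Adipocyte markers gave 5 of 12 called higher (3 higher and 1 lower with size factors), near the 46.1% of all tested genes and the 25.7% with size factors. Adipoq (0.55), Plin1 (0.48) and Cidec (0.24) were not called, but Scd was at 2.84, 2.11, 2.54 and 1.9 TPM in the control muscles and ranged from 161 to 334 TPM (median 231) in the injured muscles. Scd, a desaturase of fatty acids, separated (log2 fold change 6.10, SE 0.36, adjusted p = 2.26e-22). Tendon and cartilage genes gave 9 of 11 (8 with size factors). Tnmd was at 0.83, 0.54, 1.49 and 0.45 TPM in the control muscles and ranged from 6.87 to 115 TPM (median 59.5) in the injured muscles. Tenomodulin, of tendon, separated in spite of a wide spread (log2 fold change 4.58, SE 0.54, adjusted p = 2.29e-11). The erythroid list gave 1 of 7 called higher, and 0 with size factors. Hbb ranged from 842 to 15962 TPM (median 3295) in injured and was at 1983, 811, 988 and 2247 TPM in control muscles, so the injured muscles spread widely and the groups overlapped. Leaving out 1 muscle in turn moved the count of erythroid genes called higher between 0 and 5. Of the epidermal list 2 genes were tested, Krt10 (1.02) and Pkp1 (2.38), and both were called higher, with Krt10 losing the call with size factors and without the right control muscle of rat TS4.038 (0.78). The keratins Krt5 and Krt14 of the skin were not tested for low level. The part of these cell types in the other results was not tested.

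Genes of the cell cycle were higher, with 37 of 41 called higher and 1 lower (31 and 1 with size factors, median 2.02). Cdk1 ranged from 8.45 to 28.4 TPM (median 21.6) in the injured muscles and was at 0.29, 0.27, 0.14 and 0.13 TPM in the control muscles. The kinase that starts mitosis separated (log2 fold change 3.94, SE 0.22, adjusted p = 5.25e-23). Top2a ranged from 4.2 to 9.01 TPM (median 7.99) in the injured muscles and was at 0.12, 0.13, 0.09 and 0.03 TPM in the control muscles. Topoisomerase 2 alpha, made by dividing cells, did so as well (log2 fold change 2.82, SE 0.16, adjusted p = 1.26e-22), with Rrm2 (3.48), Ccnb2 (3.06) and Mki67 (2.52). Tpx2, a spindle assembly factor, went the other way. Tpx2 was at 30.8, 27.6, 52.7 and 18.6 TPM in the control muscles and ranged from 6.41 to 13.3 TPM (median 9.97) in the injured muscles (log2 fold change -1.601, SE 0.22, adjusted p = 2.92e-09). Its control level lay above those of Cdk1 and Top2a. Promoters of mitotic genes are known for the CCAAT box and for the element TTTGAA. Searched on both strands, CCAAT stood in 22 of the 31 tested members with a RefSeq promoter against 37.5% of all promoters, and TTTGAA in 16 of 31 against 18.3%. The promoter of Cdk1 (chr20:19265043-19265342, plus strand, GRCr8) holds 3 matches of the first and 2 of the second, shown in capitals.
Cdk1: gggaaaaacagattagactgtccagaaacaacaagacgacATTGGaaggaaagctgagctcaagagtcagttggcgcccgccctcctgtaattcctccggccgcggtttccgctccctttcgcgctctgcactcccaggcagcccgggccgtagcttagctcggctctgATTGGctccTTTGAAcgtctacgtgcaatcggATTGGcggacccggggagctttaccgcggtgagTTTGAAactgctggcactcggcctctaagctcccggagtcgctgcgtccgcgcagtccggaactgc
Of 11 genes of the insulin-like growth factor axis 10 were called higher (9 with size factors). Igf1 was at 3.23, 4.23, 3.9 and 3.51 TPM in the control muscles and ranged from 36.0 to 99.7 TPM (median 67.6) in the injured muscles. Igf1, a growth factor for muscle made by macrophages and fibers, separated (log2 fold change 3.79, SE 0.21, adjusted p = 1.26e-23), and its binding proteins Igfbp4 (4.59), Igfbp6 (4.31) and Igfbp5 (3.44) were called.

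Clock genes, protein folding genes and ribosomal proteins depended on the scaling. Among 15 clock genes Npas2 (2.15) and Arntl (1.41) were called higher, Arntl on TPM as deposited alone, and Ciart (-1.61) and Nr1d1 (-1.02) lower, the last not without rat TS5.020 (-0.93), and with size factors 1 higher and 5 lower. Against contralateral muscle 4 were called higher and 0 lower (0 and 2 with size factors), and neither Ciart nor Nr1d1 was called there (0.999 and -0.999). The hour of harvest is not given in the sources used here. Of 24 genes of folding in the endoplasmic reticulum 19 were called higher and 1, Atf4 (-1.23), lower, but 8 and 1 with size factors. Sec61a1 was at 6.2, 7.22, 5.92 and 2.56 TPM in the control muscles and ranged from 41.9 to 88.5 TPM (median 72.3) in the injured muscles. This subunit of the secretory channel rose under both scalings (log2 fold change 3.40, SE 0.19, adjusted p = 3.85e-23), whereas the chaperone Hspa5 (1.19) did so on TPM as deposited alone and not without the right control muscle of rat TS4.038 (0.98). Cytosolic ribosomal proteins gave 26 of 40 called higher on TPM as deposited and 1 with size factors. Against contralateral muscle 4 were called higher, and 1 with size factors. Rpl3 was the member called higher than control with size factors. Rpl3 was at 58.5, 56.0, 59.3 and 49.3 TPM in the control muscles and ranged from 621 to 1093 TPM (median 904) in the injured muscles. Rpl3 was 16.3-fold higher by mean TPM (log2 fold change 3.98, SE 0.14, adjusted p = 3.52e-31), at 85.8, 92.9, 89.8 and 77.2 TPM in contralateral muscle, and muscle is known to express the paralog Rpl3l in its place. Rpl3l was at 712, 728, 708 and 825 TPM in the control muscles and ranged from 141.7 to 387 TPM (median 218) in the injured muscles. The paralog thus fell while Rpl3 rose, with no overlap in either (log2 fold change -1.78, SE 0.23, adjusted p = 6.88e-10). By comparison Rps24 was at 1.39, and lost the call with size factors (0.58). Reads of near-identical gene copies can be divided among them by the quantification, so the ribosomal protein genes, the class II genes of the RT1 region, Hba1 and Hba2, C4a and C4b, and Klk1 carry this uncertainty.

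The 15 highest fold changes among called genes whose groups did not overlap belonged to Postn (8.51), Sln (7.79), Cthrc1 (7.79), Ankrd1 (7.78), Klk1 (7.64), Col1a1 (7.38), Lum (7.35), Spp1 (7.20), Mt1 (7.17), Gpnmb (7.11), Tnc (7.05), Aspn (7.01) and Chrng (6.96), Tnn and Mir3120 (6.87), with no fold given for Tnn since control was listed at 0. Klk1, a tissue kallikrein, was at 0.61, 0.88, 0.8 and 0.21 TPM in control and ranged from 187 to 426 TPM (median 343) in injured muscles. Mir3120 is a microRNA gene whose sequence matters for how its value is read. Long RNA libraries do not measure mature microRNAs, and an entry as short as a hairpin gains a high TPM from few fragments. Mir3120 ranged from 233 to 923 TPM (median 404) in the injured muscles and was at 11.4, 0, 11.4 and 0 TPM in the control muscles (log2 fold change 6.87, SE 0.53, adjusted p = 8.59e-18). Mir214 was listed at 0 in all 12 of these muscles. In the RefSeq annotation (GRCr8) the hairpin of Mir3120 (chr13:77121647-77121763, minus strand) and that of Mir214 (chr13:77121645-77121752, plus strand) overlap over most of their length and are exact reverse complements there. The strand of the libraries is not given in the sources used here, so reads of one cannot be told apart from reads of the other. The mature sequences are shown with the seed, bases 2 to 8, in capitals.
rno-miR-3120: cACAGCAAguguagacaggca
rno-miR-214-3p: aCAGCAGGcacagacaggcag
rno-miR-214-5p: aGAGUUGUcaugugucu
The 3 seeds differ. Mir199a2, whose gene shares a host transcript with Mir214 in mammals, was listed at 0 in all control muscles and ranged from 19.1 to 103.7 TPM (median 46.7) in injured muscles. Of 195 tested microRNA entries 72 were called higher and 0 lower, with 163 matched to a RefSeq name. This is 36.9%, against 46.1% of all tested genes, and with size factors 60 (30.8%, against 25.7%) were higher and 2 lower. Mir133b, of muscle, was at 9.63, 23.9, 19.4 and 4.88 TPM in control and ranged from 172 to 449 TPM (median 206) in injured muscles, and Mir21 was at 0, 6.52, 3.83 and 0 TPM against from 10.6 to 76.9 TPM (median 26.9).

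**Figure D4:**
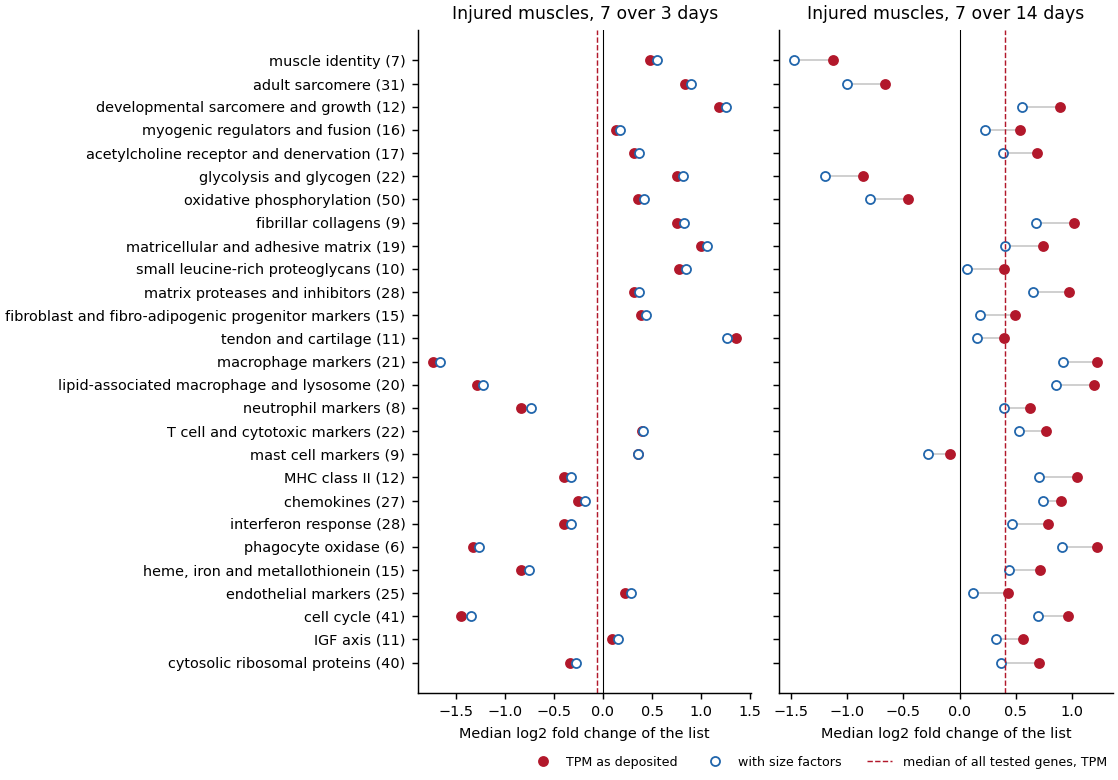
Median log2 fold change of 27 gene lists in injured muscles at 7 DPI over 3 DPI (left) and over 14 DPI (right), with 8, 3 and 4 muscles. Filled points are TPM as deposited, open points TPM with size factors, and dashed lines the medians of all tested genes (-0.06 and 0.40). Macrophage and cell cycle lists lie left of 0 against 3 DPI and right of 0 against 14 DPI under both scalings, and muscle identity and glycolysis lists the other way. Day is tied to the range of rats, as the text describes.

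The injured muscles at 7 DPI were also set against the 3 injured muscles at 3 DPI and the 4 at 14 DPI, all without repair. These comparisons share the 8 muscles of 7 DPI with the comparison to control. Day is tied to the numbers of the rats, since the muscles of 3 DPI come from rats TS5.010, TS5.017 and TS5.018 and those of 14 DPI from rats TS5.129, TS5.133, TS5.137 and TS5.141, while those of 7 DPI come from rats TS5.011 to TS5.020 and from rats TS5.105 to TS5.126. Both comparisons were therefore also made with the 4 muscles of 7 DPI of the nearer range alone, an alternative chosen after seeing the data. Against 3 DPI 227 genes (2.02%) were called higher and 607 (5.41%) lower, and against 14 DPI 695 (6.2%) higher and 82 (0.731%) lower. Myh8 was at 3.5, 8.01 and 4.76 TPM at 3 DPI and 51.5, 55.7, 70.3 and 79.2 TPM at 14 DPI, so all 8 muscles of 7 DPI lay above both (log2 fold change 4.72, SE 0.28, adjusted p = 1.05e-19, and log2 fold change 1.33, SE 0.26, adjusted p = 1.30e-05). The call of Myh8 against 14 DPI was lost with size factors (0.997). Chrne was at 5.4, 13.6 and 5.71 TPM at 3 DPI, 2 of which lie within the control range, and at 33.6, 30.3, 39.7 and 40.1 TPM at 14 DPI, so it was called against 3 DPI (log2 fold change 2.76, SE 0.24, adjusted p = 7.95e-14) and not against 14 DPI (log2 fold change 0.66, SE 0.21, adjusted p = 0.00559). Chrng was at 48.8, 76.6 and 56.7 TPM at 3 DPI and 22.9, 22.2, 26.4 and 53.8 TPM at 14 DPI (log2 fold change 1.14, SE 0.34, adjusted p = 0.00531, and log2 fold change 2.15, SE 0.30, adjusted p = 7.92e-08). At both days some values lay above the lowest 7 DPI muscle, that of rat TS5.011, and with rats TS5.011 to TS5.020 alone Chrng was not called against 3 DPI (0.96). Myog was not called against 3 DPI (log2 fold change -0.69, SE 0.30, adjusted p = 0.0607), where it was at 423, 518 and 509.9 TPM, but was called against 14 DPI (1.29). Of the 31 adult sarcomere genes 11 were called higher than at 3 DPI and 0 lower, and 8 lower than at 14 DPI and 0 higher. With size factors 11 were higher than at 3 DPI and 16 lower than at 14 DPI. Myh4 was at 1823, 3673 and 3245 TPM at 3 DPI and 13643, 10805, 8035 and 12467 TPM at 14 DPI.

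The 5 highest called genes without overlap against 3 DPI were Scd (5.16), Mir6323, which was listed at 0 in all 3 muscles of 3 DPI, Myh8 (4.72), Clrn1 (3.76) and Postn (3.32). Scd was between 3.9 and 7.71 TPM in the 3 muscles at 3 DPI and 174, 156, 199 and 199 TPM at 14 DPI. Clrn1, a membrane protein gene known from hair cells, was listed at 0 in all control muscles, at 0.49, 0.76 and 0.94 TPM at 3 DPI and from 10.01 to 37.8 TPM (median 24.95) at 7 DPI. The 5 lowest were Gal (-3.14), Cd163 (-3.06), LOC290595 (-2.78), Mir30d (-2.74) and Cd8a (-2.68). Gal, for the neuropeptide galanin, was listed at 0 in all control muscles, at 26.1, 18.99 and 21.4 TPM at 3 DPI and from 0.99 to 2.4 TPM (median 1.67) at 7 DPI. Cd163 was at 104.3, 120 and 106.5 TPM and Cd8a at 82.95, 86.5 and 80.8 TPM at 3 DPI, above any 7 DPI muscle. Of the 21 macrophage markers 17 were called lower than at 3 DPI and 12 higher than at 14 DPI, and of 41 cell cycle genes 32 lower and 18 higher. With size factors the macrophage counts were 17 and 8 and the cell cycle counts 30 and 4. Cdk1 was at 77.4, 60.3 and 52.5 TPM at 3 DPI and between 5.04 and 6.44 TPM in the 4 muscles at 14 DPI. Cd28 (2.56), the costimulatory receptor of T cells, was called higher than at 3 DPI. Matricellular genes gave 8 called higher and 2 lower than at 3 DPI and 9 higher than at 14 DPI, and fibrillar collagens 1 and 5 higher. With size factors the matricellular counts were 10, 2 and 4, and those of fibrillar collagens 1 and 1. Postn was at 115, 164 and 92.4 TPM at 3 DPI and 655, 747, 1103 and 834 TPM at 14 DPI. Against 14 DPI the 5 highest were Spp1 (4.21), Il1rl1 (2.92), Tnn (2.70), Mmp13 (2.38) and Ccl9 (2.38) and the 5 lowest Ky (-2.19), Ostn (-1.90), Mybpc2 (-1.85), RGD1565323 (-1.80) and Sec14l5 (-1.70). Spp1 was at 5.95, 7.58, 20.3 and 16.7 TPM at 14 DPI and 2621, 1215 and 2935 TPM at 3 DPI. Ky, a protein of the Z-disc region, was at 88.8, 152, 147 and 114 TPM at 14 DPI and ranged from 15.8 to 50.8 TPM (median 26.005) at 7 DPI, against 115, 129.1, 140.5 and 86.97 TPM in control muscle. With size factors 228 genes were called higher and 248 lower than at 14 DPI, and 237 and 501 against 3 DPI.

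Within the nearer range of rats several of these counts were much smaller. With rats TS5.105 to TS5.126 alone 269 of all 11213 genes were called higher and 45 lower than at 14 DPI. Higher were 2 of 21 macrophage markers, 1 of 41 cell cycle genes, 4 of 19 matricellular genes and 1 of 9 fibrillar collagens. The cell cycle count is near the share of all genes. Lower were 2 of 31 adult sarcomere genes. With size factors these list counts were 1, 0, 3, 0 and 12, where 93 of all 11213 genes were higher and 111 lower. With rats TS5.011 to TS5.020 alone 295 of all 11213 genes were called higher and 328 lower than at 3 DPI. Among them were 14 macrophage markers and 26 cell cycle genes lower, and 12 matricellular genes, 5 fibrillar collagens and 2 adult sarcomere genes higher. The 10 genes named as highest and lowest against each day were also called in the nearer range, Spp1 at 2.91, Mmp13 at 1.17 and Ccl9 at 1.32 against 14 DPI. Spp1, Mmp13 and Ccl9 were themselves called higher in rats TS5.011 to TS5.020 than in rats TS5.105 to TS5.126 at 7 DPI.

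**Figure D5:**
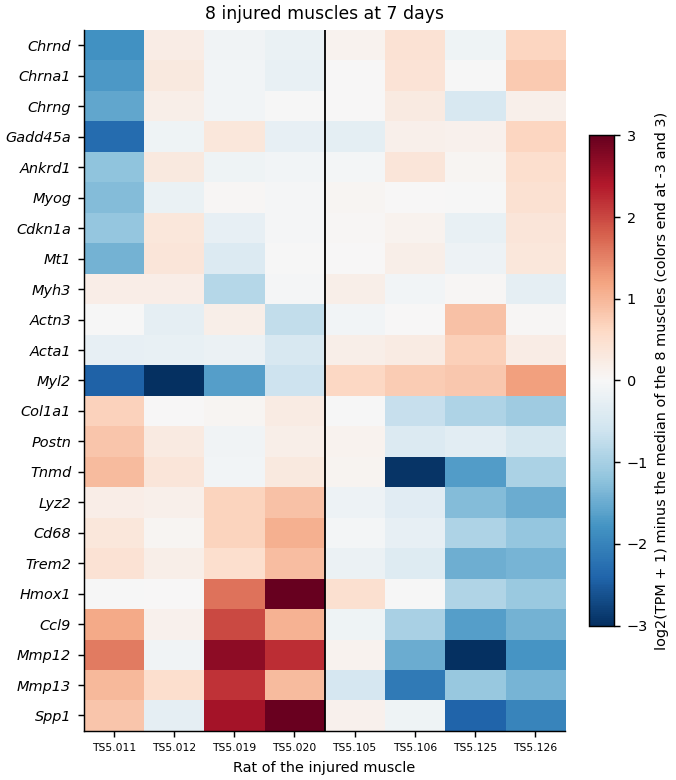
Log2(TPM + 1) of 23 genes in each of the 8 injured muscles minus the median of the 8, with colors ending at -3 and 3. Columns are rats, and the line parts rats TS5.011 to TS5.020 from rats TS5.105 to TS5.126. The muscle of rat TS5.011 is lowest for the receptor and stress genes at the top, and Spp1, Mmp12, Mmp13 and Ccl9 are higher in most rats left of the line.

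The 8 injured muscles came from rats of 2 ranges, rats TS5.011 to TS5.020 and rats TS5.105 to TS5.126, and these differed from each other. Between them 17 genes (0.152%) were called higher in rats TS5.105 to TS5.126 and 214 (1.91%) higher in rats TS5.011 to TS5.020, and nothing in the sources used here says what the numbers mark. Phagocyte oxidase genes (4 of 6 called higher in rats TS5.011 to TS5.020), tendon and cartilage genes (5 of 11), chemokines (12 of 27), macrophage markers (8 of 21), lipid-associated macrophage and lysosome genes (6 of 20), complement genes (5 of 25) and matrix proteases (5 of 28) held members of this difference. Spp1 was at 349, 162, 1118 and 1535 TPM in rats TS5.011, TS5.012, TS5.019 and TS5.020 and at 213, 180.1, 36.4 and 48.6 TPM in rats TS5.105, TS5.106, TS5.125 and TS5.126, a difference of -2.60 from the first to the second range on the log2 scale. Mmp12 was at 85.6, 26.2, 188 and 136.5 TPM in the first and 30.96, 9.57, 2.25 and 7.63 TPM in the second range. The ranges overlapped in both genes. Of 31 adult sarcomere genes 4 were called higher in rats TS5.105 to TS5.126, and of 16 calcium handling genes limma called 0, where 10 had an unadjusted p under 0.05. Myl2 was at 67.0, 39.5, 115 and 238 TPM in rats TS5.011 to TS5.020 and at 558, 623, 641 and 861 TPM in rats TS5.105 to TS5.126, with no overlap (2.83), and Myh7 and Myl3 were called likewise, whereas Tnni1 (0.44) and Casq2 (0.33) were not. With rats TS5.105 to TS5.126 alone Myl2 was at 0.92 and Myh7 at 0.22 against control, where the 8 muscles together gave -0.50 and -1.03. Between the ranges limma called 0 of the 17 acetylcholine receptor and denervation genes, 0 of the 12 developmental genes and 0 of the 41 cell cycle genes, of which 4, 1 and 34 had an unadjusted p under 0.05, as did 4703 of all 11213 genes. Rn5s and Rn7sl1, structural RNAs, were also called higher in rats TS5.011 to TS5.020 (log2 differences of rats TS5.105 to TS5.126 minus rats TS5.011 to TS5.020 of -3.69 and -3.24), but the muscle of rat TS5.011 stood highest, at 3419 and 4086 TPM. Without it neither was called (-2.46 and -1.47), Myh7 lost its call (2.005), and Myl2 (2.67), Myl3 (1.81), Spp1 (-2.83) and Mmp12 (-3.18) kept theirs. The cell cycle gene Rrm2 was then called higher in rats TS5.011 to TS5.020 (-1.01). Without that muscle, 9 genes in all were called higher in rats TS5.105 to TS5.126 and 244 higher in rats TS5.011 to TS5.020, an alternative chosen after seeing the data.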

How the data were processed

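RNA-Seq was done by the authors on total RNA of TA muscles of Lewis rats with paired reads. The authors deposited TPM, 1 value per gene symbol and library. Per the study's methods reads were quantified with Kallisto (version not given in the sources used here) on the annotated rat genome build 6.0. DESeq is among the tools that the submitters list and was not used here. TPM keeps no depth, so a gene of low level has an unknown counting error, and the sources used here give no strand setting. Of 16182 symbols 16181 were used, the last being cut short, and these end within the alphabet, so later symbols are not analysed here.

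Groups came from the labels, and 9 samples whose labels disagree or are incomplete were left out. Libraries with fewer than 7000 symbols above 1 TPM were dropped and libraries of 1 muscle averaged. limma 3.58.1 in R 4.3.3 was fitted to log2(TPM + 1) with an intensity trend (51 residual degrees of freedom). The 11213 genes with a mean above 1 TPM in at least 1 group were tested, each contrast with Benjamini-Hochberg adjustment over all of them, and called at an adjusted p under 0.05 and a log2 fold change beyond 1. Left and right muscles of a control rat entered as 2 samples, so p-values measure partly the spread within rats. The procedure was tested on simulated data. Named genes are the 15 highest and 15 lowest called without overlap against control, the 5 highest and 5 lowest against 3 and 14 DPI, and members of 45 lists chosen by level, change or textbook role. Mir133b, Mir21, Mir199a2, Mir214, Rpl3l, Rn5s and Rn7sl1 were named after their values were seen. The comparison, its lists and its genes were chosen with earlier results of these data known. Rats, named in the labels, pair injured with contralateral muscles. Over 24 pairs of muscles of 1 rat the deviations from the group means had a mean correlation of 0.0603, against -0.0147 for other pairs. Alternatives were size factors (median of ratios over 7651 genes), another pseudocount, other filters, all libraries, rat as a block, control values per rat, subsets of rats and leaving out each muscle. Some listed genes are counted but not reported here by name. Sequences are from RefSeq (GRCr8) and were matched by symbol.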

Additional observations from a re-analysis of the deposited data

Results flagged for a closer look

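Among the genes named above, each group was searched for 1 muscle whose distance to the next was large against the range of its group, both on the log2(TPM + 1) scale (Dixon's test, 95% level). Of 472 groups of values (236 genes in the 8 injured and in the 4 control muscles) 55 held such a muscle, 11.7%, where chance gives about 1 in 20. Genes share muscles, so these are not independent. Each value below is in TPM, with the range of the other muscles of the group.

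The right control muscle of rat TS4.038 accounted for 26. It was lowest for C1s (1.47 against 6.7 to 8.2), Col3a1 (16.8 against 40.4 to 44.9), Col4a1 (10.2 against 16.96 to 18.02), Ctsk (0.1 against 2.27 to 2.62), Cycs (1191 against 1589 to 1647), Eln (1.73 against 4.06 to 4.62), Fn1 (3.52 against 9.23 to 10.5), Foxo4 (65.7 against 152 to 158), Fstl1 (3.25 against 7.89 to 8.76), Gadd45a (9.75 against 24.3 to 26.7), Gpd1 (576 against 794 to 809), Igfbp4 (4.32 against 7.5 to 8.16), Mb (7451 against 13783 to 15227), Mx1 (0.22 against 0.97 to 1), Pecam1 (9.53 against 19.8 to 20.2), Phkg1 (256 against 401 to 430), S100a8 (0.7 against 1.42 to 1.6), S100a9 (0.4 against 3.02 to 3.93), Sec14l5 (5.28 against 15.97 to 19.6) and Smad7 (1.78 against 4.45 to 5.110). It was highest for Cacna1s (526 against 364 to 383), Cox6a2 (5259.6 against 3942 to 3992), Des (5569 against 3623 to 3830.4), Myoz1 (6329 against 4208 to 4475), Pgam2 (8336 against 6923 to 7125) and Tnni2 (31898 against 25109 to 25923). Among the 4 control muscles it had the fewest symbols above 1 TPM.

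The injured muscle of rat TS5.011 accounted for 13. It was lowest for Ankrd1 (598 against 1272 to 1960.4), Cdkn1a (243 against 452 to 691), Chrna1 (137.9 against 391 to 786), Chrnd (151 against 462 to 831), Chrng (51 against 109 to 184), Gadd45a (137.1 against 559 to 1069), Lpl (95.2 against 119 to 132.2), Mt1 (183 against 369 to 637), Myog (131.2 against 283 to 445), Scx (65.5 against 107.6 to 133.7) and Trim63 (64.4 against 221 to 525). It was highest for Rn5s (3419 against 11.3 to 154) and Rn7sl1 (4086 against 7.59 to 36.5). Ribosomal RNA took 16.2% of its TPM, and the part of this in the values was not tested.

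The left muscle of rat TS4.037 in the control group was lowest for Rn5s (0 against 9.41 to 13.1). The right muscle of rat TS4.037 in the control group was highest for Tnnt2 (1.76 against 1.12 to 1.21). The left muscle of rat TS4.038 in the control group was highest for C1qa (9.87 against 6.82 to 7). The injured muscle of rat TS5.012 was highest for Ciart (4.34 against 1.27 to 2.4). The injured muscle of rat TS5.125 was highest for Pkm (2417 against 1221 to 1591) and Sgcb (71.3 against 51.6 to 59.8). The injured muscle of rat TS5.019 was lowest for Casq2 (81.3 against 149 to 229), Myh3 (104.6 against 156 to 217) and Tnnc1 (209 against 433 to 807). The injured muscle of rat TS5.020 was highest for Cxcl2 (13.2 against 0.04 to 2.53). The injured muscle of rat TS5.020 was lowest for Cib2 (4.49 against 7.64 to 11.9). In the control group Cxcl2 (0.08), Lrrc15 (0.04), Mmp12 (0.04), Mmp13 (0.04) and P4ha3 (0.19) were above 0 in 1 muscle and listed at 0 in the other 3.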

How the results depend on the processing

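TPM is a share of a fixed total, so the counts rest on how libraries are scaled. With size factors 2887 genes were called higher and 1059 lower than control, 2474 and 1038 against contralateral muscle, and 228 and 248 against 14 DPI. At an adjusted p under 0.05 with no limit on the fold 8856 were higher and 1073 lower than control. With all libraries kept, those of few symbols included, 8057 were higher and 56 lower than contralateral muscle, 89 and 1000 than at 3 DPI, and 182 higher than at 14 DPI. A pseudocount of 0.1 TPM gave 381 higher than at 3 DPI and 1292 higher than at 14 DPI. Size factors with rats TS5.011 to TS5.020 alone gave 3283 and 1276 against control, and with rats TS5.105 to TS5.126 alone 2512 and 845, both chosen after seeing the data. Also chosen after seeing the data, the 7 DPI muscles of rats TS5.011 to TS5.020 alone gave 328 lower than at 3 DPI (255 with size factors), 1613 higher than at 14 DPI and 181 lower (459), and those of rats TS5.105 to TS5.126 alone gave 1002 lower than at 3 DPI and 269 higher (93) and 45 lower than at 14 DPI. The other alternatives kept each count within 1.5 times, including no filter on low values (5171 and 274), a model of the compared groups alone (5167 and 274), control values averaged per rat (5036 and 288) and, chosen after seeing the data, rat TS5.011 and the right control muscle of rat TS4.038 left out (4555 and 325).

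Leaving out each muscle in turn gave 4506 to 5466 genes higher and 251 to 364 lower than control, 4633 to 5484 and 207 to 271 against contralateral muscle, 200 to 327 and 524 to 726 against 3 DPI, and 543 to 920 genes higher than at 14 DPI and 69 or more lower.

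With rat as a random replicate block the counts were 5173 and 274 against control, 5142 and 229 against contralateral muscle, 227 and 607 against 3 DPI, and 695 and 82 against 14 DPI, and no call of a named gene against control changed. The estimated correlation within rats was -0.00736. Paired rats alone with rat as a fixed block gave 4786 higher and 157 lower than contralateral muscle, and size factors with the random block gave 2887 and 1059 against control, 2443 and 1028 against contralateral muscle, and 228 and 248 against 14 DPI, both chosen after seeing the data. Replicate numbers shared between groups were given in the order of samples and pair nothing.

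Of 236 named genes 205 kept direction and call against control with size factors, 12 lost the call and 11 gained one. The sign turned for Cdh15 (-0.12), Ctsd (-0.16), Fbxo32 (-0.73), Lamp1 (-0.13), Mybph (-0.0844), Myod1 (-0.02), P4ha1 (-0.23) and Trim63 (-0.47), none of which was called on TPM as deposited. With all libraries kept it turned for Fbxo32 (-0.27), Rn7sl1 (2.84) and Trim63 (-0.033), with rats TS5.011 to TS5.020 alone for Fbxo32 (-0.67), Rn7sl1 (1.56) and Trim63 (-0.12), and with rats TS5.105 to TS5.126 alone for Myh7 (0.22) and Myl2 (0.92). In these 3 settings 9, 1 and 10 named genes lost the call. The 10 were Atp5a1, Cox6a2, Foxo4, Hspa5, Krt10, Myl3, Nr1d1, Pvalb, Rn5s and Synpo2. Leaving out 1 muscle turned the sign at least once for 3 genes that were not called, which ranged Fbxo32 from -0.14 (without the right control muscle of rat TS4.038) to 0.37 (without rat TS5.011), Flt1 from -0.31 (without the right control muscle of rat TS4.038) to 0.0493 (without the right control muscle of rat TS4.037) and Rn7sl1 from -1.04 (without rat TS5.011) to 0.23 (without rat TS5.125). Without one muscle Casq1, Cxcl2, Cyr61, Hbb and Lpl gained a call, and Foxo4, Hspa5, Krt10, Nr1d1, Pvalb and Synpo2 lost theirs at least once. Causes were not tested. Control rests on 2 rats, 3 DPI on 3 muscles, and depth is unknown, so genes near 0 TPM carry an unmeasured counting error.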
